A study of Mus musculus with 30 samples.

Results

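The 49 genes described here encode the machinery of mitosis and chromosome segregation. They were taken by name as the rows listed as members in both deposited expression tables, out of 38720 gene symbols. The study measured poly(A) RNA in newborn (postnatal day 0) mouse retinas that were dissociated with papain and split with anti-CD90 magnetic beads into a bead-selected fraction, called retinal ganglion cells (RGCs), and the remaining cells, called non-RGCs and labelled as pooled other retinal cells. The series holds 30 samples, of which 18 are RNA libraries and 12 are chromatin samples. The 9 libraries behind the tables are 3 of WT RGCs, from C57BL/6 mice, 3 of mutant RGCs and 3 of mutant non-RGCs. The labels hold 2 mutant genotypes, Math5Cre; Ezh2f/f (sKO) and Math5Cre; Ezh2f/fG9af/+ (dKO), and the tables say only that a library is mutant, so which of them was measured is not known here and "mutant" is the tables' word. Both genotypes carry floxed Ezh2 and a Cre driven by Math5 (Atoh7), a proneural gene switched on as progenitors leave the cell cycle, so recombination is limited to cells with a history of Math5 and cells without it keep Ezh2. The controls are labelled by strain alone, so the strain of the mutants, the presence of Cre and the loss of Ezh2 cannot be told apart. WT non-RGC libraries were not analysed here. The labels do not say that the 3 samples of a group came from separate animals, and p-values measure only the spread between these libraries.

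Mitosis separates the copied chromosomes. Kinetochores build on centromeres and bind spindle microtubules, the checkpoint holds back the anaphase-promoting complex until every kinetochore is bound, kinesin motors build and stretch the spindle, and condensins compact the chromosomes while cyclin-dependent kinase 1 drives entry. Most of these transcripts are made only in cycling cells, from late S phase to M phase, and are switched off in neurons. In the newborn retina the cycling cells are the progenitors that still make rods, bipolar cells and Mueller glia, whereas ganglion cells were born before birth and do not divide.

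Libraries held between 10551825 and 12259494 reads assigned to genes. No member had fewer than 118 reads in any library. Levels are normalised counts, that is reads divided by the library's size factor on 1 scale for all 9 libraries, and are not corrected for transcript length, so levels are compared between libraries and not between genes. Where 3 values are given in a row they are libraries 1, 2 and 3 of a group. Ezh2 itself stood at 1154, 1169 and 1576 in WT RGCs, 1962, 1863 and 1812 in mutant RGCs and 2233, 2159 and 2330.5 in mutant non-RGCs. It was thus higher, not lower, in the mutant RGC libraries (log2 difference 0.58 ± 0.13 SE, adjusted p 0.0292 by limma), but reads over the whole gene do not show whether the floxed exons were present, and the "mutant" of the tables is used with that limit. Ehmt2, which encodes G9a, stood at 3743, 3603 and 3857, at 2364, 2799 and 2962 and at 2985, 3248 and 2747 in the same order of groups, and fell by 0.43 on the log2 scale between genotypes (SE 0.11, adjusted p 0.0332). The bead-selected libraries held ganglion cell transcripts: the summed level of 12 ganglion cell markers was 26368 to 31006 in WT RGCs, 12475 to 20264 in mutant RGCs and 2676 to 7450 in mutant non-RGCs. They were not pure, since the 12 retinal progenitor markers summed to 15562 to 23859 in WT RGCs and 25190 to 26924 in mutant RGCs, against 28421 to 29565 in mutant non-RGCs.

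In mutant RGCs the mitosis genes were higher as a block. Of the 49 members 46 rose against WT RGCs and none fell (limma on log2(normalised count + 1), Benjamini-Hochberg over 15276 genes, adjusted p under 0.05), whereas 13.7% of all genes tested were called higher. Limma with voom weights and the authors' deposited table called 47 higher each, and none lower. The authors' table called 5.45% of all genes with a p higher. Voom weights called 4173 genes in either direction, and the share called higher alone was not computed. At an unadjusted p under 0.05 limma had 49 members higher and 0 lower. No share of all genes was computed at that threshold, here or for the unadjusted counts below. The median log2 difference of the members was 1.07, a 2.10-fold difference, against 0.0043 over all genes tested, and single members ran from 0.27 for Bub3 to 1.44 for Cdc25c. Of the 49, 30 were called and more than 2-fold higher, against 3.02% of all genes. In 48 of 49 members every mutant RGC library lay above every WT RGC library, against 26.2% of all genes, and Kifc1 was the exception. In bulk RNA, fewer cells of a type and less RNA per cell cannot be told apart, so these values do not say whether more cells or more transcript per cell carried the difference.

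**Figure D1:**
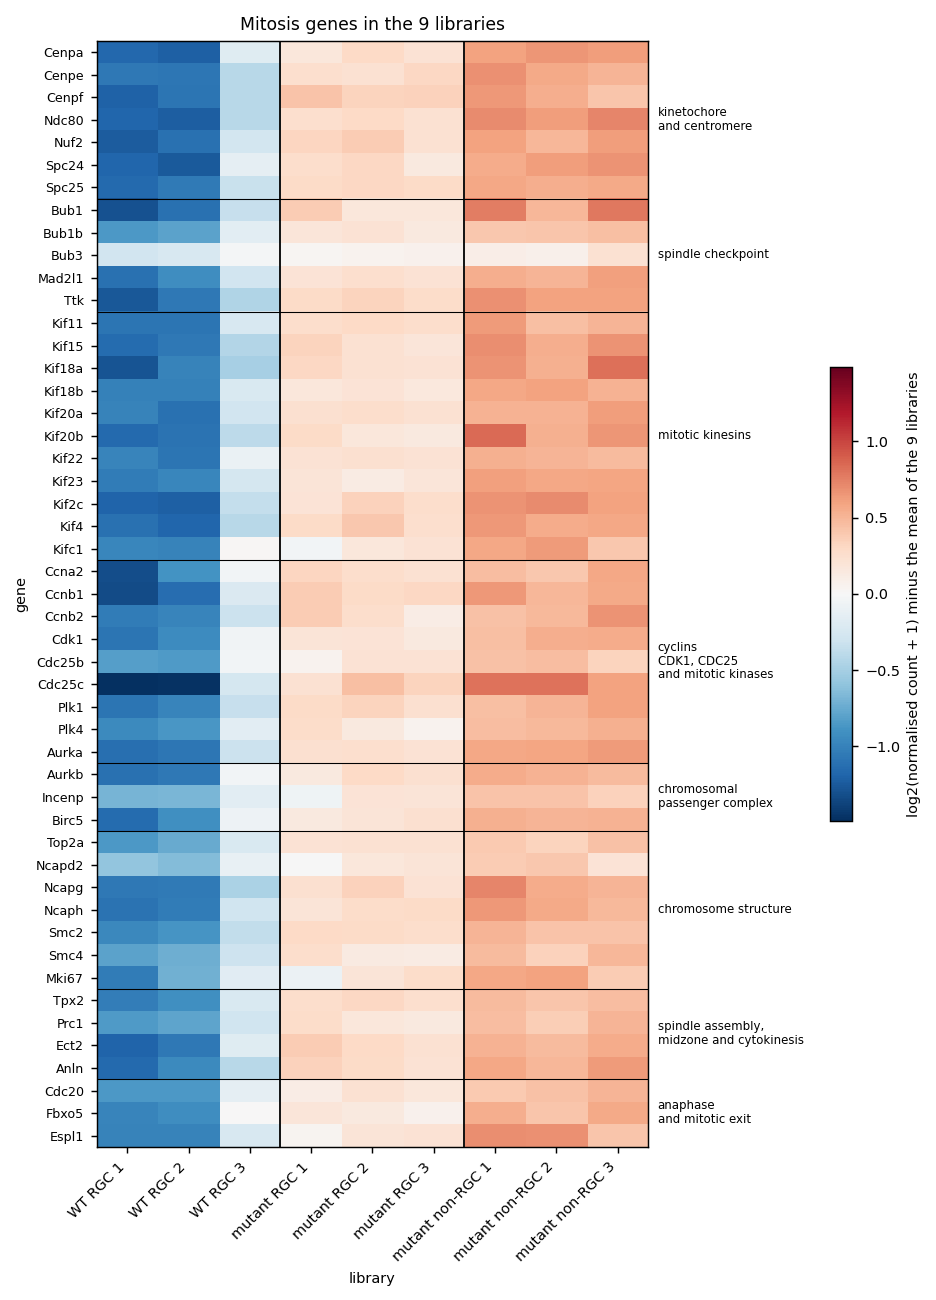
Levels of the 49 mitosis genes (rows, grouped by role) in the 9 libraries (columns), as log2(normalised count + 1) minus the gene's mean over the 9 libraries, with red above and blue below that mean. WT RGC libraries 1 and 2 are the lowest columns, WT RGC library 3 lies between them and the mutant libraries for nearly every gene, and Bub3 is the palest row.

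The summed level of the 49 genes was 31219, 33147 and 52529 in the 3 WT RGC libraries, 70957, 72800 and 71833 in mutant RGCs, and 89496, 86377 and 86655 in mutant non-RGCs. Mitosis genes thus took 0.259% to 0.454% of the reads in WT RGCs, 0.629% to 0.647% in mutant RGCs and 0.796% to 0.833% in mutant non-RGCs, with no overlap between the groups. The WT group was far less even than the mutant ones. WT RGC library 3 was the highest of the WT libraries in 49 of 49 members, by a median of 0.75 on the log2 scale over the mean of the other two (range 0.23 to 1.22), and was still below every mutant RGC library in 48 of 49. The median coefficient of variation of the members was 32.4% in WT RGCs, 4.12% in mutant RGCs and 4.37% in mutant non-RGCs, where the 14905 genes tested in both comparisons had medians of 11.4%, 9.18% and 9.83%. WT RGC library 3 also had the lowest summed ganglion cell markers of the WT group (26368, against 30249 and 31006) and the highest summed progenitor markers (23859, against 15562 and 16024), and the part of this in the members' values was not tested.

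The genotype calls rested on single libraries, while the direction did not. Without WT RGC library 3, 49 of 49 members were called higher with a median log2 difference of 1.36, where 22.1% of all genes were called higher. Without mutant RGC library 1, 26 were called, against 7.31% of all genes. Without WT RGC library 1 or 2, or mutant RGC library 2 or 3, limma called 0 members, while the same fits called 0.0524%, 0.0459%, 0.0131% and 0.0392% of all genes higher. In these fits 46, 46, 47 and 47 members were higher at an unadjusted p under 0.05, a looser threshold. No share of all genes was computed for it. All 49 differences were above 0, as were 50.4% of those of all genes in the fit with every library, and their median was between 0.94 and 1.36 in each of these 6 fits.

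Within the mutant retinas, the mitosis genes were higher again in the non-RGC fraction than in RGCs, by a smaller step. Of the 49 members 35 rose in non-RGCs and none fell, against 5.07% of the 15178 genes tested that were called higher. The authors' deposited table called 5 of them, Bub1, Kif20b, Kif23, Espl1 and Mki67, against 1.17% of all genes. Limma with voom weights called 34, where it called 2192 of all genes in either direction, and no tool called a member lower. At an unadjusted p under 0.05 limma had 47 higher and 0 lower. The median log2 difference was 0.31 (range 0.08 for Bub3 to 0.47 for Kif20b), a median of 1.24-fold and at most 1.39-fold, against 0.013 over all genes. Every non-RGC library lay above every mutant RGC library in 46 members, against 17.1% of all genes, with Cenpf, Bub3 and Ncapd2 as the exceptions. These separations were counted on each table's own scale of 6 libraries, and on the scale of 9 libraries used for the levels printed here Bub3 and Ncapd2 were narrowly separate. Without mutant RGC library 2 or 3, or mutant non-RGC library 1 or 2, the count of members called was 5, 1, 1 and 13, against 0.514%, 0.601%, 0.29% and 1.17% of all genes. Without mutant RGC library 1 or non-RGC library 3 it was 34 and 31, against 6.4% and 6.75% of all genes. All 49 differences were above 0, against 51.9% of all genes, with the median between 0.28 and 0.33 in all 6 fits that left out a library.

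The mutant RGC libraries serve both comparisons, so the comparisons are not independent: a high mutant RGC value enlarges the first difference and shrinks the second. In all 49 members the group means were ordered WT RGC, mutant RGC, mutant non-RGC, and 33 members were called higher in both comparisons. The 14 members not called between fractions were Cenpf, Nuf2, Bub3, Ccna2, Ccnb2, Cdc25b, Plk1, Incenp, Top2a, Ncapd2, Smc2, Mki67, Tpx2 and Ect2. The 3 not called between genotypes were Bub3, Kifc1 and Fbxo5.

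**Figure D2:**
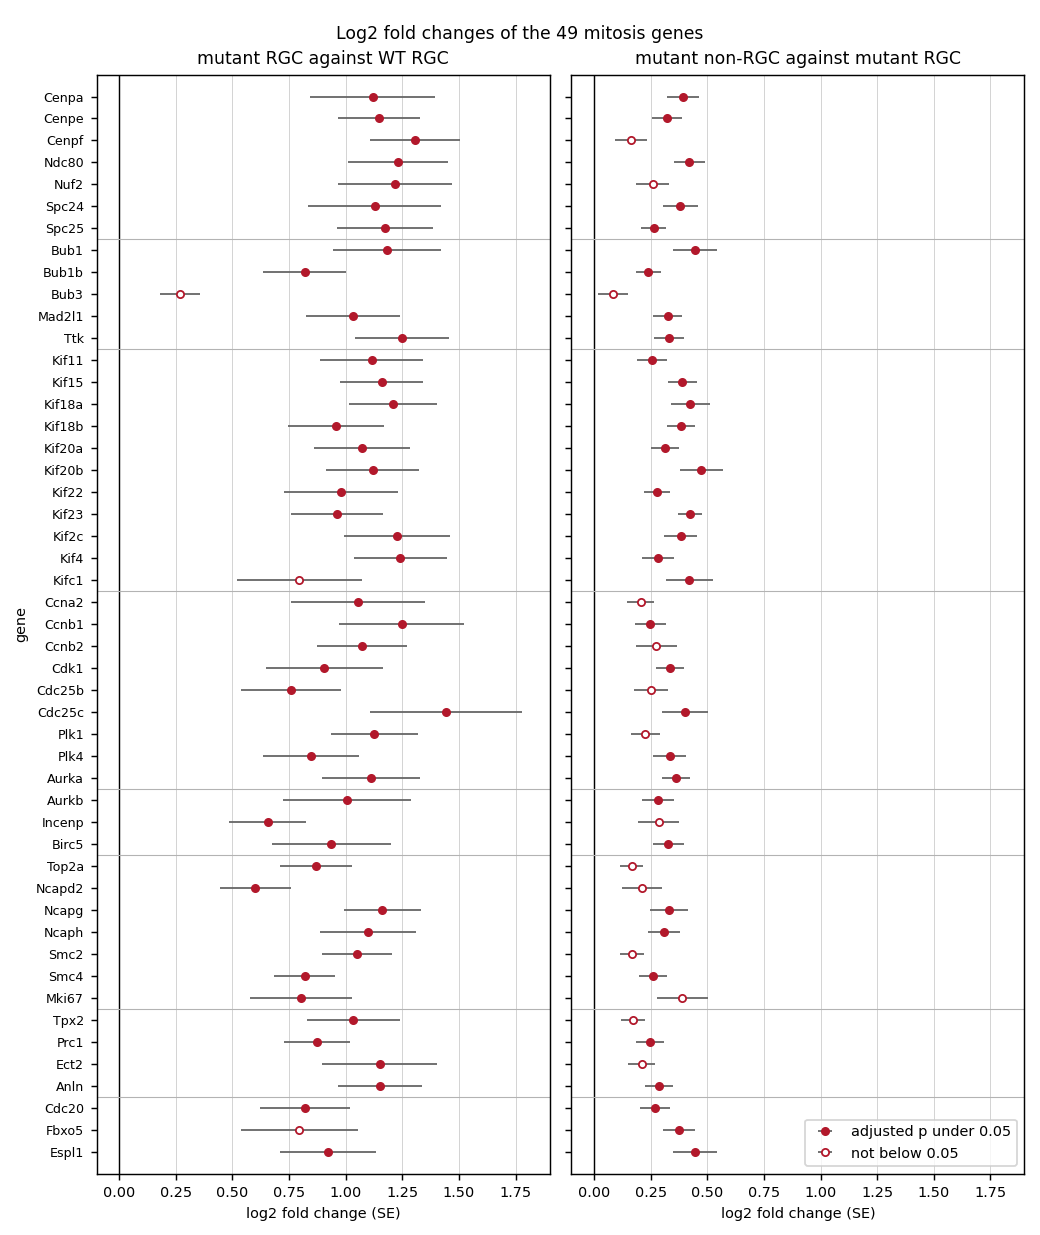
Log2 fold change (points) with its standard error (bars) for each of the 49 genes, in mutant against WT RGCs on the left and in mutant non-RGCs against mutant RGCs on the right, 3 libraries a group. Filled points have an adjusted p under 0.05 (46 on the left, 35 on the right), and every point lies right of 0.

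The members' promoters were read because the genes moved together. Many late cell cycle promoters are known to carry a cell cycle genes homology region (CHR), bound by the LIN54 subunit of the DREAM and MuvB complexes, and CCAAT boxes, bound by NF-Y. RefSeq promoter windows of build GRCm38.p6, from 250 bases before to 50 bases after the annotated start, were found for 41 of 49 members and gave 44 windows. The CHR was searched as TTTGAA and the CCAAT box as CCAAT, both on either strand, and no CHR match shared bases with a CCAAT match in the members' windows. A CHR was present in 34 of 44 windows (77.3%), against 17.9% of all 32851 windows, and lay within 50 bases of the start in 30 (68.2%), against 4.94%. A CCAAT box was present in 33 (75.0%), against 37.4%, both motifs in 29 (65.9%), against 6.95%, and at least 2 CCAAT boxes in 22 (50%), against 11.7%. A match is a stretch of letters and not a measured binding site.

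The windows of 4 members are shown because, among members that hold both motifs, they are the ones with the smallest p between genotypes. Kif4, the last of them, shared its adjusted p with Ttk and Prc1, which hold both motifs too, and was taken for its smaller unadjusted p. The 4 members code for the condensin subunits NCAPG and SMC2, the kinetochore protein CENPF and the chromokinesin KIF4. The fifth window, of Bub3, was added after its values were seen because it holds both motifs and had the smallest change of all members. Each run is written 5′ to 3′ on the gene's strand, from 250 bases before to 30 bases after the start, with CHR and CCAAT matches of either strand in capitals.
Ncapg, chr5:45669675-45669954, plus strand: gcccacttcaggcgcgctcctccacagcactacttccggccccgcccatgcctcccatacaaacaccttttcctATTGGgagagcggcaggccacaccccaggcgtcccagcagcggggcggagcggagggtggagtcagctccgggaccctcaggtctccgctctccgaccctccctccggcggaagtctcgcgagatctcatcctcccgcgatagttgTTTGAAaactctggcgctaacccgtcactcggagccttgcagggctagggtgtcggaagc
Smc2, chr4:52438971-52439250, plus strand: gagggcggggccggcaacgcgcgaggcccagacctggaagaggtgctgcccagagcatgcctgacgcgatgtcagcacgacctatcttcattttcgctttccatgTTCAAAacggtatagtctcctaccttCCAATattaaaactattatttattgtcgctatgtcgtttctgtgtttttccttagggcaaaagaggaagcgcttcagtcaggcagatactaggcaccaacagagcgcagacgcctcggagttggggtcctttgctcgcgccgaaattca
Cenpf, chr1:189688057-189688336, minus strand: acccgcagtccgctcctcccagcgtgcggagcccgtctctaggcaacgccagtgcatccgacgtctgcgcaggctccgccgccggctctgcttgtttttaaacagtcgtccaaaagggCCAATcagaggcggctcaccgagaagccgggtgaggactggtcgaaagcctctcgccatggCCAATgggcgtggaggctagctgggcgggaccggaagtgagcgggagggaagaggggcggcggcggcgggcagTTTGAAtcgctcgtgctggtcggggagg
Kif4, chrX:100625815-100626094, plus strand: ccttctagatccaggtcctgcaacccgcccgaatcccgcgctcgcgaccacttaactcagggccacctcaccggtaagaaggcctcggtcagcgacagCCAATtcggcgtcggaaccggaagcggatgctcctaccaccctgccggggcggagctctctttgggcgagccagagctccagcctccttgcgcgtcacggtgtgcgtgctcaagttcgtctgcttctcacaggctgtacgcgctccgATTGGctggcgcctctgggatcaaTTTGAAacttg
Bub3, chr7:131560120-131560399, plus strand: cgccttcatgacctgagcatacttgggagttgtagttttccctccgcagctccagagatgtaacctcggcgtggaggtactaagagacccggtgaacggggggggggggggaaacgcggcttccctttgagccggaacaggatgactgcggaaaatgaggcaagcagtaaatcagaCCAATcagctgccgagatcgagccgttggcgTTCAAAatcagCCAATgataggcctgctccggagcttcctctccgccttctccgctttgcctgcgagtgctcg
In Cenpf and Kif4 the CHR began 3 and 20 bases after the start, and each had 2 CCAAT boxes upstream. In Ncapg the CHR lay 30 bases before the start and in Smc2 145 bases before it, with a further match in Smc2 that began 27 bases after the start and runs past the letters shown. Bub3 had 2 windows, from 2 annotated starts, of which 1 is printed. In it the CHR lay 43 bases before the start, between CCAAT matches at 74 and 32 bases before it. The log2 difference of Bub3 between genotypes was 0.27. Of the matched members, the 31 with a CHR match had a median log2 difference between genotypes of 1.07 (0.27 to 1.31). The 10 without a match had 1.12 (0.76 to 1.25). They were Birc5, Bub1, Ccnb1, Cdc25b, Cenpe, Kif18a, Mad2l1, Ncaph, Nuf2 and Plk4. Without a match means only that TTTGAA was not found in the window, and a part of the motif in the differences was not tested.

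**Figure D3:**
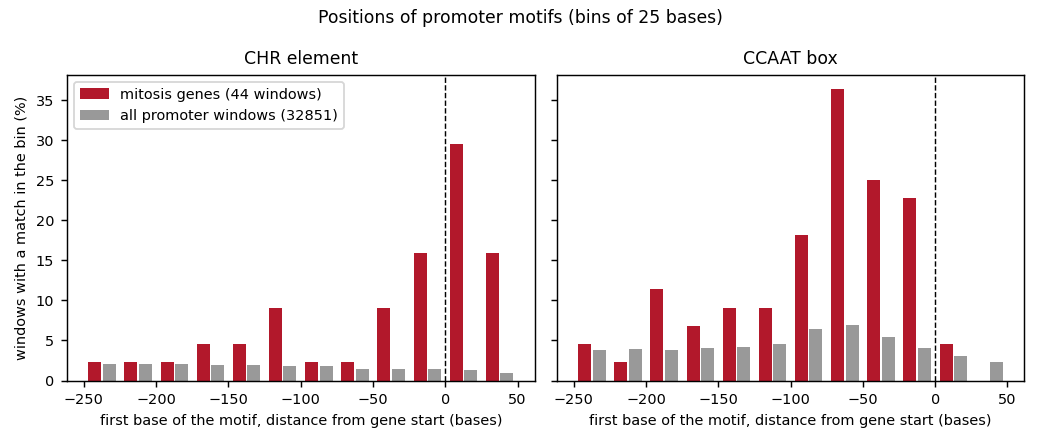
Share of promoter windows (percent) with a match beginning in each 25-base bin, by distance from the annotated gene start, for the CHR on the left and the CCAAT box on the right; red bars are the 44 windows of the mitosis genes and grey bars all 32851 windows. The CHR of the mitosis genes peaks in the first 25 bases after the start, at 29.5% of windows against 1.3% of all windows.

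The kinetochore and centromere genes rose together. All 7 were called higher in mutant RGCs, with a median log2 difference of 1.17, and 5 of 7 in non-RGCs against mutant RGCs, with a median of 0.32. Cenpf (chr1:189640606-189688107, minus strand), which encodes a large protein of the outer kinetochore and nuclear matrix, had the most reads of the group. Its level was 1071, 1168 and 1853 in WT RGCs, 3332, 3119 and 3147 in mutant RGCs and 3872, 3601 and 3290.0 in mutant non-RGCs. All mutant RGC libraries exceeded all WT ones by a wide margin, while the lowest non-RGC library fell among the mutant RGC range. The log2 difference between genotypes was 1.31 ± 0.20 (SE, adjusted p 0.0237) and between fractions 0.16 ± 0.07 (adjusted p 0.17), so Cenpf was among the 3 largest of the first comparison and not called in the second. Ndc80, the microtubule-binding core of the outer kinetochore, differed more evenly, with levels of 251, 244 and 431 in WT RGCs, 681, 704 and 667 in mutant RGCs and 929, 878 and 943 in non-RGCs and no overlap between these groups. It rose by 1.23 on the log2 scale between genotypes (adjusted p 0.0244) and by 0.42 between fractions (adjusted p 0.011). Its partners in the NDC80 complex, Nuf2, Spc24 and Spc25, had log2 differences of 1.22, 1.13 and 1.17 between genotypes, and 0.26 (not called), 0.38 and 0.26 between fractions. Cenpa, the histone H3 variant that marks centromeres, rose by 1.12 and 0.39, and Cenpe, a kinetochore motor that moves chromosomes to the spindle equator, by 1.15 and 0.32.

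Of the 5 spindle checkpoint genes 4 rose in both comparisons, with group medians of 1.03 between genotypes and 0.33 between fractions, and Bub3 was called in neither. Ttk, which encodes the kinase MPS1 at the head of the checkpoint, had 247, 284 and 436 normalised counts in WT RGCs, 719.9, 747 and 715 in mutant RGCs and 953, 897 and 899.9 in non-RGCs. Its 3 groups did not overlap, and it rose by 1.25 ± 0.21 (adjusted p 0.0238) and then by 0.33 ± 0.07 (adjusted p 0.0182). Bub1, a checkpoint kinase that also marks centromeric histones, was among the 5 largest changes between fractions. Bub1 stood at 319, 362 and 617 in WT RGCs, 1016, 877 and 878 in mutant RGCs and 1331, 1107 and 1347 in non-RGCs, rose by 1.18 between genotypes (adjusted p 0.0262) and by 0.45 ± 0.10 between fractions (adjusted p 0.0227). Bub1b, which encodes the checkpoint protein BUBR1 and had the most reads of the group, rose less, by 0.82 (adjusted p 0.0295) and 0.24 (adjusted p 0.0257), from 773, 809 and 1255 in WT RGCs to 1584, 1631 and 1555 in mutant RGCs and 1857, 1860.4 and 1920.1 in non-RGCs. Mad2l1, whose product MAD2 is the checkpoint's diffusible inhibitor, rose by 1.03 and 0.33.

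Bub3 (chr7:131560367-131571895), a WD40 protein that brings BUB1 and BUBR1 to kinetochores, stood apart from its partners. Its levels were 979.8, 1013 and 1172 in WT RGCs, 1219.5, 1241 and 1251 in mutant RGCs and 1279, 1258 and 1401 in non-RGCs. The WT and mutant RGC libraries were still separate, by a narrow gap, and the mutant fractions were separate by even less, a gap that closed on the scale of that table alone. The log2 difference was 0.27 ± 0.09 between genotypes (adjusted p 0.0596) and 0.08 ± 0.06 between fractions (adjusted p 0.432), and the authors' deposited adjusted p for the genotypes was 0.376. As a share of the summed level of the 49 genes, Bub3 was 3.14%, 3.05% and 2.23% in the 3 WT libraries, 1.71% to 1.74% in mutant RGCs and 1.43% to 1.62% in non-RGCs.

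Of the 11 mitotic kinesins 10 rose between genotypes, with a median log2 difference of 1.11, and 11 between fractions, with a median of 0.39. Kif11, which encodes the Eg5 motor that pushes spindle poles apart, had the most reads, with 879, 884 and 1581 in WT RGCs, 2242, 2301 and 2253 in mutant RGCs and 2917, 2547 and 2669.8 in non-RGCs. It rose by 1.11 ± 0.23 (adjusted p 0.0267) and 0.26 ± 0.07 (adjusted p 0.0401). Kif15, a motor that backs up Eg5, stood at 593, 628 and 964 in WT RGCs, 1645, 1528 and 1487 in mutant RGCs and 2122, 1912 and 2079.5 in non-RGCs and rose by 1.16 (adjusted p 0.0238) and 0.39 (adjusted p 0.0118). Neither gene had an overlap between groups, and in both the highest WT library was library 3.

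Kif20b, Kif18a and Kif23 were among the 5 largest changes between fractions. Kif20b, which acts at the spindle midzone and in cytokinesis, had 775, 715 and 704 in mutant RGCs and 1139.9, 916 and 1005 in non-RGCs, a rise of 0.47 ± 0.09 (1.39-fold, adjusted p 0.0172), after 285, 295 and 484 in WT RGCs. Kif18a, a motor that dampens chromosome oscillations, had 715, 673 and 666 in mutant RGCs and 917, 832 and 1018 in non-RGCs, a rise of 0.42 ± 0.09 (adjusted p 0.0188). Its WT levels were 236, 287 and 409.8, and it rose by 1.21 between genotypes (adjusted p 0.0238). Kif23, which encodes the MKLP1 motor of the centralspindlin complex, had 1205, 1148 and 1191 in mutant RGCs and 1608, 1564 and 1584 in non-RGCs, a rise of 0.42 ± 0.05 with the smallest adjusted p of any member between fractions (0.00733). Its WT levels of 509, 536 and 876 lay below both fractions of the mutant, a rise of 0.96 (adjusted p 0.0274). Kif2c, a microtubule depolymerase at centromeres, and Kif4, a chromokinesin, rose by 1.23 and 1.24 between genotypes and by 0.38 and 0.28 between fractions. Kif18b, Kif20a and Kif22 rose by 0.96, 1.07 and 0.98 between genotypes and by 0.39, 0.31 and 0.28 between fractions.

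Kifc1 (chr17:33875664-33890633), a minus-end motor that focuses spindle poles and clusters extra centrosomes, was the kinesin without a genotype call. It stood at 337, 332 and 666 in WT RGCs, 642, 739 and 764 in mutant RGCs and 987, 1019.8 and 868 in non-RGCs. WT RGC library 3 exceeded mutant RGC library 1, the sole overlap between genotypes among the 49 genes. The log2 difference was 0.79 ± 0.28 (adjusted p 0.071, and 0.0932 in the authors' deposited table), larger than that of some called members but with a wider error. Between fractions Kifc1 rose by 0.42 ± 0.10 (adjusted p 0.0333).

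All 9 genes of the group of cyclins, Cdk1, CDC25 phosphatases and PLK and Aurora A kinases rose between genotypes (median 1.07), and 5 of 9 between fractions (median 0.28). Cdc25c, a phosphatase that activates CDK1 at entry, had the largest change of all 49. It stood at 123, 124 and 289 in WT RGCs, 406, 472 and 436 in mutant RGCs and 607, 606 and 527 in non-RGCs, so that WT libraries 1 and 2 were far below library 3 and all groups were separate. It rose by 1.44 ± 0.33 (2.72-fold, adjusted p 0.0308) and by 0.40 ± 0.10 (adjusted p 0.0379). Cdc25b, its relative that acts earlier in entry, rose by 0.76 (adjusted p 0.0475), near the small end. Between fractions it differed by 0.25 (adjusted p 0.0618) and was not called.

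Ccna2, the S and G2 phase cyclin, had the most reads of this group, with 627, 842 and 1526 in WT RGCs, 1959, 1873 and 1836 in mutant RGCs and 2149, 2073 and 2325 in non-RGCs. WT library 1 was far below WT library 3, and the gene rose by 1.05 ± 0.30 (adjusted p 0.0446). Between fractions its difference of 0.21 (adjusted p 0.0583) was not called. Plk1, the polo-like kinase of entry, spindle assembly and cytokinesis, stood at 417, 447 and 696 in WT RGCs, 1079.8, 1116 and 1045 in mutant RGCs and 1209, 1251 and 1338 in non-RGCs with no overlap. It rose by 1.13 ± 0.19 between genotypes (adjusted p 0.0239), and its 0.23 between fractions (adjusted p 0.0542) was not called. The M phase cyclins Ccnb1 and Ccnb2 rose by 1.25 and 1.07 between genotypes and their partner Cdk1 by 0.91. Plk4, the kinase of centriole copying, and Aurka, the centrosomal Aurora kinase, rose by 0.85 and 1.11.

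The chromosomal passenger complex, which corrects wrong attachments of kinetochores, was represented by its Aurora B kinase and its subunits INCENP and survivin. All 3 genes rose between genotypes (median 0.94), and Aurkb and Birc5 rose between fractions (group median 0.29). Incenp, the scaffold, was among the 3 smallest changes between genotypes. Its levels were 947, 956 and 1371 in WT RGCs, 1467, 1763 and 1747 in mutant RGCs and 2058, 2051 and 1947 in non-RGCs, with WT library 3 close under mutant library 1. It rose by 0.66 ± 0.17 (adjusted p 0.0367), and its difference between fractions of 0.29 ± 0.09 (adjusted p 0.0707) was not called. Aurkb rose by 1.01 and 0.28, and Birc5, which encodes survivin, by 0.94 and 0.33.

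All 7 genes of chromosome structure rose between genotypes (median 0.87) and 3 of 7 between fractions (median 0.26). Mki67, the coat protein of mitotic chromosomes used as the Ki-67 proliferation marker, had the most reads of the group. It stood at 2372, 2979 and 4339 in WT RGCs, 4607, 5575 and 5909.5 in mutant RGCs and 7302, 7386 and 6334 in non-RGCs, and mutant library 1 was only a little above WT library 3. It rose by 0.80 ± 0.23 (adjusted p 0.0444). Between fractions its difference of 0.39 ± 0.11 had an adjusted p of 0.0551 by limma and 0.0427 in the authors' deposited table, on opposite sides of the threshold. Top2a, the topoisomerase that untangles sister chromatids, was nearly equal in the 3 mutant RGC libraries, at 5594, 5603 and 5609.7, against 2653, 2857 and 4089 in WT RGCs and 6315, 6059.7 and 6507 in non-RGCs. It rose by 0.87 (adjusted p 0.0245), and its 0.17 between fractions (adjusted p 0.0599) was not called.

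Condensin subunits differed in size. Ncapg, a condensin I subunit, had the smallest adjusted p between genotypes of any member, with 402, 405 and 604 in WT RGCs, 987, 1069.5 and 975 in mutant RGCs and 1391, 1237 and 1192 in non-RGCs, and rose by 1.16 ± 0.17 (adjusted p 0.0225) and 0.33 ± 0.08 (adjusted p 0.0366). Ncapd2, of the same complex, had 2196, 2114 and 3065 in WT RGCs, 3289, 3728 and 3767 in mutant RGCs and 4309, 4378 and 3799 in non-RGCs, with non-RGC library 3 just above the mutant RGC libraries. It rose by only 0.60 ± 0.16 (adjusted p 0.0378), the second smallest change, and its 0.21 between fractions (adjusted p 0.147) was not called. The third condensin I subunit, Ncaph, rose by 1.10 and 0.31. The ATPases Smc2 and Smc4, which both condensins share, rose by 1.05 and 0.82 between genotypes, while between fractions Smc4 rose by 0.26 and Smc2 differed by 0.17 (adjusted p 0.0724).

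All 4 genes of spindle assembly, midzone and cytokinesis rose between genotypes (median 1.09) and 2 of 4 between fractions (median 0.23). Tpx2, the Aurora A activator that seeds spindle microtubules, stood at 935, 1010.4 and 1628 in WT RGCs, 2291, 2364 and 2275 in mutant RGCs and 2647, 2538 and 2633 in non-RGCs with no overlap, and rose by 1.03 ± 0.20 (adjusted p 0.0255). Its difference between fractions, 0.17 ± 0.05 (adjusted p 0.0649), was not called. Anln, which encodes the contractile ring scaffold anillin, had 458, 530.5 and 771 in WT RGCs, 1297, 1246 and 1190.5 in mutant RGCs and 1525, 1444 and 1589 in non-RGCs and rose by 1.15 (adjusted p 0.0238) and 0.29 (adjusted p 0.0231). The microtubule bundler Prc1 rose by 0.87 and 0.25, and Ect2, the exchange factor that starts furrowing, rose by 1.15 between genotypes and differed by 0.21 (adjusted p 0.051) between fractions.

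Of the 3 genes of anaphase and mitotic exit, Espl1 and Cdc20 rose between genotypes (group median 0.82), and all 3 rose between fractions (median 0.38). Espl1, which encodes separase, the protease that cuts cohesin, had 692, 694 and 1175 in WT RGCs, 1426, 1574 and 1598 in mutant RGCs and 2227, 2216 and 1846 in non-RGCs. It rose by 0.92 ± 0.21 (adjusted p 0.0305) and by 0.45 ± 0.10 (adjusted p 0.0222), among the 5 largest between fractions. Cdc20, the activator of the anaphase-promoting complex, rose by 0.82 and 0.27. Fbxo5, whose product EMI1 inhibits that complex until mitosis begins, stood at 361, 377 and 714 in WT RGCs, 808, 789 and 745 in mutant RGCs and 1038, 948 and 1058 in non-RGCs, with WT library 3 close under the mutant RGC libraries. Its log2 difference between genotypes of 0.80 ± 0.26 had an adjusted p of 0.0595 by limma and 0.047 in the authors' deposited table. Between fractions Fbxo5 rose by 0.38 ± 0.07 (adjusted p 0.0154).

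The shares of the role groups in the summed member level moved by a few percentage points. Kinetochore genes were 10.2% to 10.9% of the summed member level in WT RGCs, 12.4% to 12.9% in mutant RGCs and 12.2% to 12.7% in non-RGCs. Genes of chromosome structure were 31.3% to 34.4% in WT RGCs, 29.6% to 31.4% in mutant RGCs and 29.3% to 30.5% in non-RGCs. The kinetochore share was higher in every mutant library than in every WT library, while the chromosome structure ranges of WT and mutant RGCs overlapped. These shares are given as values without a test.

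Genes of DNA replication, the preceding step of the cell cycle, were also higher. Of 26 replication genes 20 rose between genotypes and none fell (median log2 difference 0.81), and 12 rose between fractions and none fell (median 0.27). Of all genes tested, 13.7% were called higher between genotypes and 5.07% between fractions. Voom weights called 22 and 11 replication genes higher. The authors' deposited table called 21 and 2 higher, against 5.45% and 1.17% of all genes. Limma had 0 replication genes lower at an unadjusted p under 0.05 in either comparison, and neither voom weights nor the authors' deposited table called one lower. The summed level of the 49 mitosis genes over that of the replication genes was 2.00, 2.05 and 2.20 in WT RGCs, 2.43, 2.37 and 2.45 in mutant RGCs and 2.51, 2.42 and 2.53 in non-RGCs. The ratio was thus lower in every WT library than in every mutant library. The same sum over that of the 12 progenitor markers was 2.01, 2.07 and 2.20 in WT RGCs, 2.64, 2.89 and 2.84 in mutant RGCs and 3.15, 2.92 and 2.97 in non-RGCs.

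Markers of other cell types moved with the members in part. Of 12 progenitor markers 3 rose between genotypes and 3 between fractions, and none fell, where 13.7% and 5.07% of all genes were called higher. Voom weights called 5 and 3 of these markers higher, and the authors' deposited table called 5 and 2. Limma had 11 and 9 higher, and 0 lower, at an unadjusted p under 0.05. Of the 12 markers, 11 lay above 0 between genotypes and all 12 between fractions. Their summed level was 15562 to 23859 in WT RGCs, 25190 to 26924 in mutant RGCs and 28421 to 29565 in mutant non-RGCs, with no overlap between groups. Of 12 ganglion cell markers 6 fell between genotypes (median -0.76) and 6 between fractions (median -1.96), and none rose. At an unadjusted p under 0.05 limma had 12 lower between genotypes and 11 between fractions. Voom weights called 8 and 7 ganglion cell markers lower, and the authors' deposited table called 8 and 11. In all 12 every mutant RGC library lay below every WT RGC library, and the share of all genes apart in that direction was not computed. Of 9 photoreceptor markers 5 rose between genotypes (summed level 7771 to 10814 in WT RGCs, 11704 to 16929 in mutant RGCs and 13006 to 17038 in non-RGCs), and of 7 amacrine markers 5 rose (5419 to 6397, 8396 to 10829 and 8811 to 11269). Voom weights called 5 photoreceptor and 5 amacrine markers higher between genotypes, and the authors' deposited table called 3 and 5. For 1 photoreceptor marker every mutant RGC library lay below every WT RGC library. Between fractions limma called 0 photoreceptor markers higher and 1 lower (median 0.06). It called 1 amacrine marker higher and 0 lower (median 0.08), where 5.07% of all genes were called higher. Of 9 endothelial and pericyte markers only 1 was called higher between genotypes (3975 to 5248, 5455 to 9722 and 6165 to 6747), against 13.7% of all genes. Limma called 2 of 4 tested pigment epithelium markers higher between genotypes (230.0 to 310.1, 365.8 to 749.5 and 396 to 507.5). For these 4, voom weights called 1 and the authors' deposited table called 0. None of 4 tested astrocyte and 2 tested lens markers was called between genotypes by limma, voom weights or the authors' deposited table, and 1 astrocyte marker had an unadjusted p under 0.05 by limma. The part of these cells in the members' differences was not tested.

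Single mutant libraries stood apart in some of these markers and not in the members' sum. Mutant RGC library 1 had the fewest ganglion cell transcripts of its group, with a marker sum of 12475 against 20199 and 20264, and its 11 microglia markers summed to 6967 against 1990 and 1799. Its mitosis genes summed to 70957 against 72800 and 71833, and its 12 progenitor markers to 26924 against 25190 and 25304. The part of the cell mix in these sums was not tested. Mutant non-RGC library 3 had 2676 of ganglion cell markers against 5996 and 7450, and its mitosis genes summed to 86655, between the other 2. Of the 11 microglia markers none was called between genotypes by limma, limma with voom weights or the authors' deposited table, and none had an unadjusted p under 0.05 by limma. All 11 fell between fractions, since they summed to only 49.1 to 65.9 in non-RGCs, and Aif1, Tyrobp, Trem2 and P2ry12 were at 0 in at least 1 non-RGC library.

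**Figure D4:**
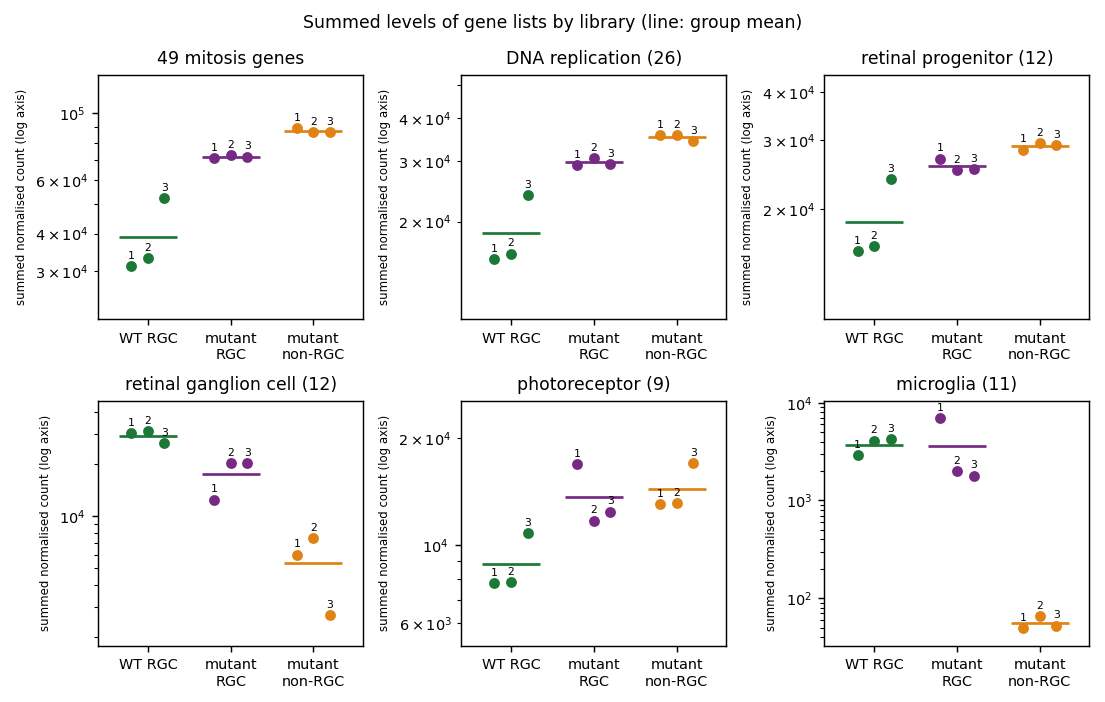
Summed normalised counts (log axis) of the 49 mitosis genes and of 5 other gene lists, with the number of genes in brackets, in each library of the 3 groups; points are libraries with their numbers and lines are group means. The mitosis genes are tight within the mutant groups and spread in WT RGCs, where library 3 is high, and mutant RGC library 1 departs from libraries 2 and 3 in ganglion cell, photoreceptor and microglia markers but not in mitosis genes.

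Of 98 other genes of the mitotic pathway in the tables, 64 rose between genotypes and 1 fell (median log2 difference 0.70), and 36 rose and 1 fell between fractions (median 0.27). Of all genes tested, 13.7% were called higher between genotypes and 5.07% between fractions. Among other kinetochore and centromere genes 26 of 31 rose between genotypes and 13 between fractions. Sgol2, the shugoshin that guards centromeric cohesin, rose from 93.4, 119 and 142 in WT RGCs to 312, 291 and 277 in mutant RGCs (2.56-fold, adjusted p 0.0215) and to 366, 360.3 and 372 in non-RGCs (adjusted p 0.0479). Casc5, the kinetochore scaffold that recruits BUB proteins, rose by 1.49 between genotypes (adjusted p 0.0238), with 326, 369 and 618 in WT RGCs and 1237, 1112 and 1124 in mutant RGCs. Of 19 other mitotic regulators 13 rose between genotypes, among them the kinases Melk (1.22) and Mastl (1.01), and 9 between fractions. Of 20 other spindle and cytokinesis genes 16 rose between genotypes, among them Ckap2l (1.19) and Arhgap11a (0.98), and 13 between fractions. The condensin II subunits Ncapd3 and Ncapg2 rose by 0.50 and 0.92 between genotypes. Without WT RGC library 1 or 2, or mutant RGC library 2 or 3, limma called 0 of the 98 higher between genotypes. The same fits called 0.0524%, 0.0459%, 0.0131% and 0.0392% of all genes higher. At an unadjusted p under 0.05, where no share of all genes was computed, they had 67, 68, 68 and 71 of the 98 higher. Without mutant RGC library 1 limma called 37, against 7.31% of all genes. Between fractions it called 5, 2, 0 and 15 without mutant RGC library 2 or 3 or mutant non-RGC library 1 or 2. These fits called 0.514%, 0.601%, 0.29% and 1.17% of all genes higher. Where limma called 0 of the 98, 48 were higher at an unadjusted p under 0.05.

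Zwint was the gene of the pathway that fell in both comparisons. Its product binds KNL1 at kinetochores and is also found in neurons. Zwint stood at 2755, 2853 and 2719.7 in WT RGCs, 1884, 2228 and 2178 in mutant RGCs and 1709, 1716 and 1692 in non-RGCs. All WT libraries were above all mutant RGC libraries, which in turn were above all non-RGC libraries. It fell by 0.37 on the log2 scale between genotypes (SE 0.09, adjusted p 0.0328) and differed by -0.29 between fractions (SE 0.08, adjusted p 0.0482, called lower), although the call between fractions was lost without a filter on low values, under total-count scaling, with voom weights and in the authors' deposited table. The call between fractions was also lost without mutant RGC library 2 or 3 and without any 1 of the mutant non-RGC libraries. The call between genotypes was lost without WT RGC library 1 or 2, without mutant RGC library 2 or 3, and in the authors' deposited table (adjusted p 0.107).

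The anaphase-promoting complex, the ubiquitin ligase that ends mitosis and that also works in resting cells and neurons, had 18 genes measured with its cofactors. Of these 3 rose between genotypes (median 0.15), against the 13.7% of all genes tested that were called higher, namely the E2 enzyme Ube2c (0.84) and the subunits Cdc26 (0.32) and Anapc1 (0.25). Between fractions limma called 0 of the 18 (median 0.09), with 3 higher and 1 lower at an unadjusted p under 0.05, and voom weights and the authors' deposited table also called 0. Their promoters held a CHR in 3 of 20 windows (15%), against 17.9% of all promoter windows. The share was 40.6% (39 of 96) for all the other mitosis genes, these 18 included. Within them it was highest for the other spindle and cytokinesis genes, at 14 of 20 (70.0%). For DNA replication genes it was 4 of 24 (16.7%). Of the 7 regulators of mitotic transcription 4 rose between genotypes. Mybl2, which encodes the B-MYB partner of MuvB, went from 191, 199.98 and 320.0 in WT RGCs to 441, 506 and 491 in mutant RGCs, a rise of 1.09 ± 0.21 (adjusted p 0.0251). The CHR-binding subunit gene Lin54 rose by 0.67 (adjusted p 0.0226), its partner Lin9 by 0.63, and Foxm1, the forkhead factor of G2 and M phase genes, by 0.69, and Foxm1 was the sole regulator called between fractions (0.31, adjusted p 0.0231).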

How the data were processed

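Poly(A) RNA libraries of bead-selected RGCs and of non-RGCs were compared. Per the submitters' processing notes, the tools were STAR 2.3, featureCounts and DESeq on build mm10, with no strand setting given. The deposited tables hold, per the file headers, the authors' mean normalised counts (a signal per condition, pooled over libraries), the fold change as a ratio of condition B to A, its log2 value, and the p-value and adjusted p-value of the authors. The tables' names show that duplicate reads were removed before counting, which lowers the counts of abundant short transcripts. The values deposited are means, not values per library. Whole reads of each library were recovered from the deposited means and size factors, for 99.9745% to 100% of genes above 0, and both tables gave the same mutant RGC reads in 23953 of 23953 genes. Libraries were numbered within a group by falling size factor and cannot be tied to sample numbers.

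Reads were scaled with the authors' size factors. A gene was tested where its mean in the 6 libraries compared was 10 or more, using limma 3.58.1 (R 4.3.3) with a variance trend on log2(value + 1), which understates changes of low genes. A call is a Benjamini-Hochberg adjusted p under 0.05 over all genes tested. The method was tested on simulated data. For limma these gave all genes the same dispersion and drew them independently. The simulation thus does not cover a library that is high in all members at once. Other pseudocounts, filters, scalings and tests, and leaving out each library, were tried as alternatives. Printed levels use size factors computed over the 9 libraries, an alternative added after seeing the data. Members, gene lists and the rule for named genes (in each role the gene with the most reads and the one with the smallest adjusted p, all members not called, and the largest and smallest changes) were chosen with earlier results of these data known. Promoters are from RefSeq, GRCm38.p6.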

Additional observations from a re-analysis of the deposited data

How the results depend on the processing

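All 49 mitosis genes were above 0 in both comparisons under every alternative tried: pseudocounts of 0.5 and 5, no filter on low values, upper-quartile, total-count and 9-library scaling, voom weights, the authors' deposited values and leaving out each library. Between genotypes these settings, libraries left in, called 44 to 47 members higher. Apart from the authors' values, the same settings called 3098 (no filter) to 4301 (9-library scaling) of all genes in either direction. Leaving out 1 library gave 0 to 49 called higher and 0 to 0 lower, with a median log2 difference of 0.94 to 1.36. For the other mitosis genes it gave 0 to 77 higher and 0 to 2 lower, with a median of 0.62 to 0.91, and the authors' deposited adjusted p called 0 of these lower. The same fits called 0.0131% to 22.1% of all genes higher. Between fractions, leaving out 1 library gave 1 to 34 members called higher and 0 to 0 lower, with a median of 0.28 to 0.33. For the other mitosis genes it gave 0 to 36 higher and 0 to 1 lower, with a median of 0.25 to 0.29. The same fits called 0.29% to 6.75% of all genes higher. The authors' deposited adjusted p called 5 members and 11 other mitosis genes higher between fractions. Under total-count scaling the median of the members between fractions was 0.37, and 56 other mitosis genes were called higher with a median of 0.33. The median of all genes was 0.079 under that scaling and 0.013 in the main fit. Of all genes, 3066 and 2590 were called in either direction in these fits. Zwint, called lower between fractions, was not called without a filter, under total-count scaling, with voom weights or by the authors' adjusted p, each giving 0, nor without mutant RGC replicate 2 or 3 or any 1 of the mutant non-RGC replicates. The counts called 0 when a library was left out had 46 or more members at an unadjusted p under 0.05, a threshold at which no share of all genes was computed. Why the calls depend on single libraries was not tested. Each member had at least 118 reads in each library, and depth limits members with few reads, such as Cdc25c, more than Top2a. No paired analysis was possible because the tables carry no replicate numbers.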
